A study of Mus musculus with 2 samples.

Results

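Microglia in which transcripts of the mitochondrial genome took 3 to 10% of the counted molecules were compared with microglia of the same libraries at 0.8 to 1.6%. The cells were chosen by that measured share alone, so their mitochondrial level is no result. They came from the hypothalamus of young wild-type mice, pooled from several animals, 20 hours after an injection of dye-labelled plasma protein. Microglia were sorted by whether they carried the dye, and each sort gave 1 droplet library, called plasma-negative and plasma-positive here. All animals of both sorts had received the labelled protein, so neither library is an uninjected control. The unit is the UMI, the molecular tag that counts 1 captured RNA molecule once. The plasma-negative library held 9878 cells with 34549522 UMIs, and the plasma-positive library 10390 cells with 42006454 UMIs. Of the 18832 cells with at least 1000 UMIs and 300 detected genes, 758 had a mitochondrial share of 3 to 10%. The plasma-negative library gave 301 of 9069 (3.32%, 95% exact binomial interval 2.96 to 3.71%) and the plasma-positive library 457 of 9763 (4.68%, 4.27 to 5.12%). The comparison cells at 0.8 to 1.6%, called reference cells below, numbered 4134 and 4779. With 1 library per sort there is no replicate, cells of 1 library are not replicates, and no p-value is given. All intervals cover counting error only.

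The share was a continuous range with no gap at its lower limit. In the plasma-negative library 55 cells lay just inside, at 3 to 3.2%, and 84 just outside, at 2.8 to 3%. In the plasma-positive library the same ranges held 77 and 127 cells. At 3 to 5% there were 234 and 343 cells, and at 5 to 10% 67 and 114 cells. Above 10% there were 5 and 4 cells, which were not used in the comparisons.

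The mitochondrial genome encodes 13 proteins, all of them subunits of the respiratory chain or of ATP synthase. mt-Nd1 to mt-Nd6 and mt-Nd4l belong to complex I, mt-Cytb to complex III, mt-Co1 to mt-Co3 to complex IV, and mt-Atp6 and mt-Atp8 to complex V. Their RNAs are made and kept inside the organelle, behind its membranes, while every other subunit is encoded in the nucleus and translated in the cytosol. The share of such RNA is commonly used to judge single cells, since a cell that loses cytosolic RNA keeps its organelles longer, and it also differs between healthy cell types. On chromosome M (GRCm38) mt-Co1 lies at 5328 to 6872 and mt-Atp6 at 7927 to 8607, both on the plus strand and without introns. Neighbouring genes there share bases. A tag from the shared stretch of mt-Atp8 and mt-Atp6, or of mt-Nd4l and mt-Nd4, fits both members of the pair. How such tags were counted is not given in the sources used here. The ends that meet are shown 5′ to 3′ from the GENCODE M21 transcripts, 120 bases each, with the 43 and 7 shared bases in capitals. They are the last bases of mt-Atp8 (chrM:7850-7969), the first of mt-Atp6 (chrM:7927-8046), the last of mt-Nd4l (chrM:10054-10173) and the first of mt-Nd4 (chrM:10167-10286).
mt-Atp8: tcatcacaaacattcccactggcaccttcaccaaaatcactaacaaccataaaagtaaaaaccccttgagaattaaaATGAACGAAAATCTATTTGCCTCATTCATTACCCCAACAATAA
mt-Atp6: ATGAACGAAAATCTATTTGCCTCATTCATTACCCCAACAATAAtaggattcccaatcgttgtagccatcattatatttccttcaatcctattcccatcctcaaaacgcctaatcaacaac
mt-Nd4l: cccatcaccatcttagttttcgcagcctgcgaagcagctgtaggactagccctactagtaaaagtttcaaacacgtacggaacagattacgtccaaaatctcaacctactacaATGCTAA
mt-Nd4: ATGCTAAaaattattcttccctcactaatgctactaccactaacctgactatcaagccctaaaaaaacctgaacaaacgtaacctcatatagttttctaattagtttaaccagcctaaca

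The cells carried the microglial identity their label gives them. Of 11 markers of microglia, among them P2ry12, Tmem119, Cx3cr1, Csf1r, Sall1 and Trem2, at least 4 were detected in 301 of the 301 cells of high mitochondrial share in the plasma-negative library and in 456 of the 457 in the other. The median was 9 and 10 markers, against 11 in the reference cells of each library. These markers were counted at the full depth of each cell, which was lower at high share, as given below. At least 4 markers of another cell type were found in 0 and 2 cells. The summed level of the 10 markers of border-associated macrophages was 32.1 per 1000000 UMIs (17.5 to 53.8, from 14 UMIs) in the plasma-positive cells of high share against 7.41 (5.16 to 10.3) in reference cells, with 6 of the 10 at 0. In the plasma-negative library it was 3.47 against 5.87. Of the 14 plasma-positive UMIs, 10 lay in the ribosomal-poor cells defined below. Their level there was 65.8, against 8.30 in reference cells of the remaining kind, which were deeper. The total behind these levels leaves out mitochondrial genes, ribosomal protein genes and Malat1. Markers of dendritic cells stood at 10.4 and 32.1 against 15.7 and 15.2, of endothelial cells at 34.7 and 43.5 against 30.6 and 29.9, of neurons at 3.47 and 13.7 against 2.0 and 5.08, and of the oligodendrocyte lineage at 104 and 110 against 92.8 and 93.8. Every marker of T or NK cells, mural cells, ependymal cells and red blood cells was at 0. The part of other cell types in the results was not tested.

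The cells were also shallower than the reference cells. Their median was 1601 UMIs per cell in the plasma-negative and 2009 in the plasma-positive library, against 3595.5 and 3963. Under 2000 UMIs lay 192 of 301 (63.8%) and 225 of 457 (49.2%) of them, against 178 of 4134 (4.31%) and 153 of 4779 (3.2%) reference cells. The counts behind the share are given as a description, since the rule used them. Among cells under 2000 UMIs, those of high share had a median of 57 and 62 mitochondrial UMIs against 18 and 18 in reference cells, and 1205.5 and 1240 other UMIs against 1675.5 and 1649. Among cells with at least 2000 UMIs the medians were 117 and 137 mitochondrial UMIs against 42 and 47, and 3141 and 3651 other UMIs against 3618 and 3970. To compare genes at 1 depth, each cell was thinned at random to 1000 UMIs. Levels of nuclear genes are UMIs per 1000000 UMIs that are not mitochondrial, because the mitochondrial total is what chose the cells.

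The rule fixed the sum of the 13 mitochondrial transcripts and not how they divide. mt-Atp6, the proton channel subunit of ATP synthase, made up 12.9% of the mitochondrial UMIs in plasma-negative cells of high share and 13.2% in reference cells, and 13.4% and 13.1% in the plasma-positive library. mt-Co1, the catalytic subunit of complex IV, was lower at 11.1% against 12.7% (ratio 0.879, interval 0.829 to 0.931) and 11.9% against 12.8% (0.927, 0.885 to 0.971). mt-Co3, another core subunit of complex IV, was higher at 18.1% against 16.8% (1.08, 1.03 to 1.13) and 17.8% against 17.0% (1.05, 1.01 to 1.09). mt-Nd5 was lower in the plasma-positive library (1.55% against 1.94%, ratio 0.802, 0.705 to 0.910) and not in the plasma-negative one (1.84% against 1.85%, 0.997, 0.860 to 1.15). For the other 9 genes the interval of the ratio held 1 in at least 1 library. Within strata cut at 2000 UMIs per cell the differences were not resolved. The cut did not make depth equal. Under 2000 UMIs the median depth was 1257 and 1306 UMIs at high share against 1691 and 1673 in reference cells. For mt-Co1 the ratios were 0.927 (0.804 to 1.07) and 0.919 (0.795 to 1.07) under 2000 UMIs, and 0.951 (0.863 to 1.05) and 0.996 (0.936 to 1.06) in deeper cells. For mt-Co3 they were 1.06 (0.948 to 1.19) and 0.892 (0.796 to 1.001) under 2000 UMIs, and 0.987 (0.909 to 1.07) and 1.05 (0.998 to 1.11) in deeper cells, so its direction did not hold in every stratum.

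**Figure D1:**
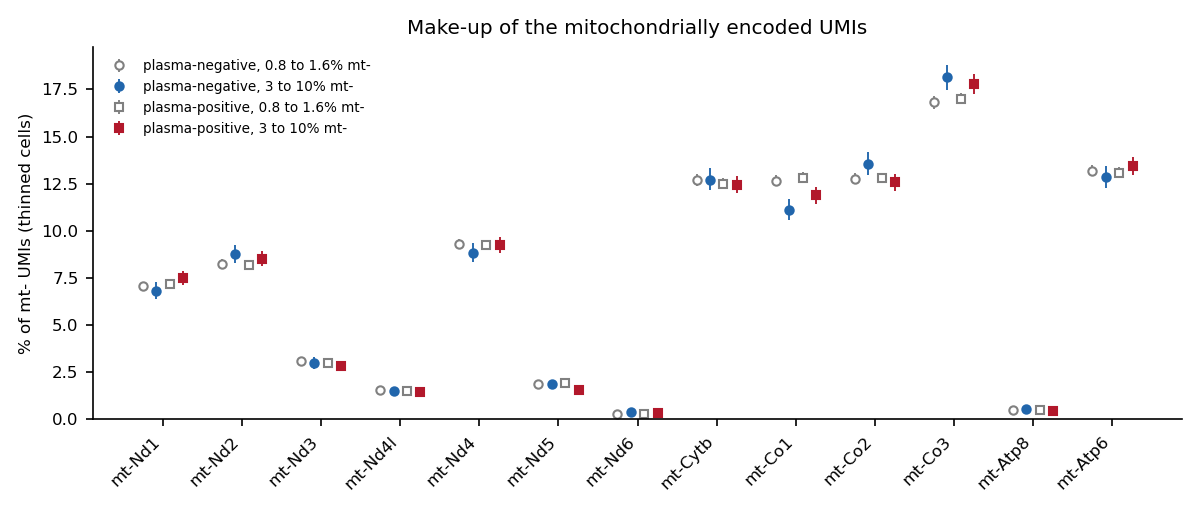
Share of each mitochondrially encoded gene (x axis) in all mitochondrial UMIs of thinned cells (y axis, percent), with exact 95% binomial intervals. Filled symbols are cells at 3 to 10% mitochondrial UMIs and open symbols cells at 0.8 to 1.6%, circles plasma-negative and squares plasma-positive; the filled symbols of mt-Co1 lie below the open ones in both libraries (11.1% against 12.7%, 11.9% against 12.8%), a difference not resolved within strata of depth.

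Across cells of all depths, few nuclear genes differed by size. A gene was counted where its mean level over both groups of cells was at least 100 in each library and its ratio was at least 1.5 one way in both libraries. Of 1632 genes at that level, 36 (2.21%) were higher and 19 (1.16%) lower in the cells of high mitochondrial share. Apoe, the lipid carrier protein of activated microglia (chromosome 7, 19696109 to 19699188, minus strand), stood at 534 against 164 in the plasma-negative library and at 2347 against 844 in the plasma-positive one, log2 ratios of 1.70 and 1.48. These levels are pooled over 3 kinds of cells defined below. Between the kinds, the share of thinned cells with at least 3 Apoe UMIs ranged from 1.38% to 11.7% and from 5.73% to 35.5%. It was lowest in the ribosomal-poor cells. Gm43221, a non-coding transcript antisense to Fam102b on chromosome 3, stood at 225 against 49.7 and 206 against 39.8 (2.18 and 2.37). P2ry12, the purine receptor of resting microglia, was at 1814 against 2875 and 1733 against 2735, a log2 ratio of -0.66 in both libraries. Of the nuclear genes of the respiratory chain, 4 of 77 were higher and 56 lower in both libraries, with median log2 ratios of -0.24 and -0.21. Over all genes with a mean of at least 20 the medians were 0.01 and -0.01, with 34.3% higher and 34.1% lower in both libraries. Of 12 nuclear-retained or long non-coding RNAs, 10 were higher and 0 lower, with medians of 0.58 and 0.57. Both lists changed sign when reference cells were weighted to the depth of the cells of high share: the mean of the medians over both libraries was then 0.0918 for the respiratory chain and -0.0207 for the non-coding list, and 8 genes were higher and 8 lower.

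The direction of several gene groups depended on the depth of the cells. A split at 2000 UMIs per cell, chosen after the data were seen, gave opposite signs. Among cells under 2000 UMIs, 0 of 85 ribosomal protein genes were higher and 77 lower in both libraries, with median log2 ratios of -0.37 and -0.73, against 32.6% of all genes higher and 27.5% lower. Among cells with at least 2000 UMIs, 83 of 86 were higher and 1 lower, with medians of 0.52 and 0.56, against 19.5% and 39.4% of all genes. Genes of disease-associated microglia, which include Apoe and Lyz2, were lower for 6 and higher for 1 of 9 in the shallow cells, and higher for 11 of 11 in the deep ones. The genes called at 1.5-fold were 57 higher (3.51% of 1626) and 65 lower (4%) in the shallow cells, and 21 higher (1.41% of 1493) and 22 lower (1.47%) in the deep ones. The calls of shallow and deep cells shared 1 higher gene, AY036118, and 0 lower genes.

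Each cell was next placed by the share of its non-mitochondrial UMIs from Malat1 and from ribosomal protein genes. Malat1 is a long non-coding RNA that stays in the nucleus (chromosome 19, 5795690 to 5802672, minus strand). Ribosomal protein mRNAs are short, abundant and cytoplasmic. The cells of high mitochondrial share fell into 3 groups on these axes, with few cells between them. Limits were set after seeing this, at 4% ribosomal protein UMIs and 1% Malat1, so the groups are ranges of 2 per-cell shares and not cell types, and the Malat1 and ribosomal values within them are set by the limits. Ribosomal-poor cells (under 4% ribosomal protein UMIs) numbered 145 of 301 (48.2%, interval 42.4 to 54.0%) and 192 of 457 (42.0%, 37.4 to 46.7%). Malat1-poor cells (under 1% Malat1, at least 4% ribosomal) numbered 77 (25.6%, 20.7 to 30.9%) and 93 (20.4%, 16.8 to 24.3%). The remaining 79 (26.2%) and 172 (37.6%) cells lay within the main cloud of the reference cells. Close to the Malat1 limit, between 0.5 and 2%, were 7 of 301 and 12 of 457 cells, and close to the ribosomal limit, between 3 and 6%, were 8 and 22. The 1 cell under both limits was counted as ribosomal-poor.

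**Figure D2:**
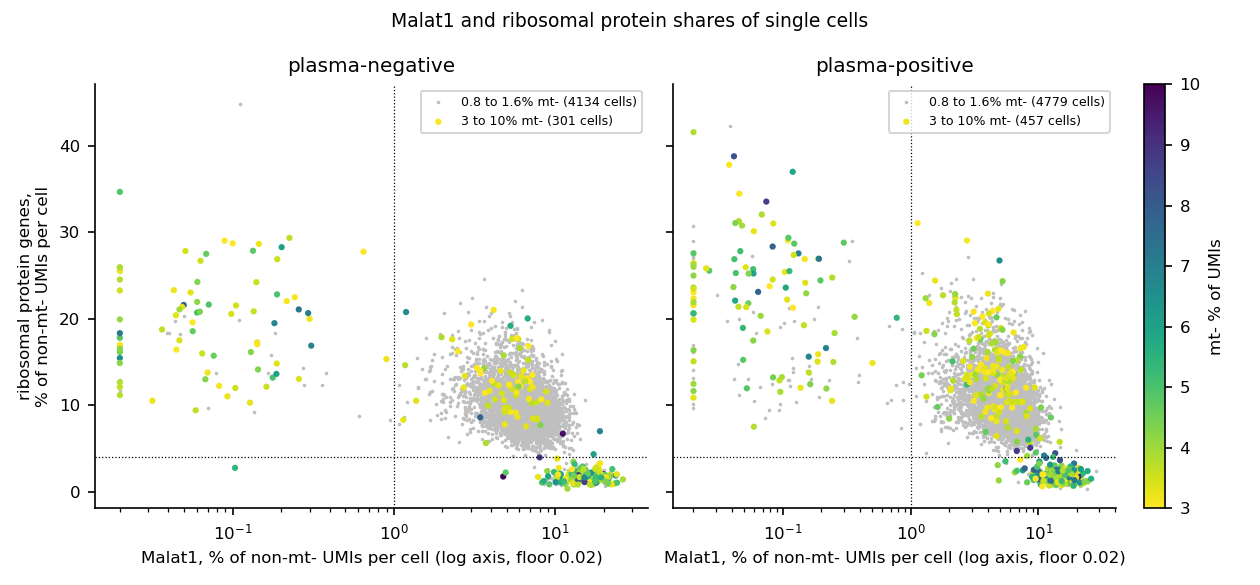
Each point is 1 cell: Malat1 (x axis, percent of its non-mitochondrial UMIs, log axis with values under 0.02 drawn at 0.02) against ribosomal protein genes (y axis, percent of the same UMIs). Grey points are reference cells and coloured points cells at 3 to 10% mitochondrial UMIs, darker at a higher share; dotted lines mark the limits of 1% and 4%, and the coloured cells form a group at lower right (145 and 192 cells), a group at left (77 and 93) and a group within the grey cloud (79 and 172).

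Both unusual kinds were rare among the reference cells. Ribosomal-poor cells were 75 of 4134 (1.81%) and 70 of 4779 (1.46%) there, and Malat1-poor cells 22 (0.532%) and 61 (1.28%). At 0 to 0.8% ribosomal-poor cells were 3.47% and 1.74%, more than in the reference band. From the reference band upward they took a larger share in each higher band. They made up 7.34% and 4.52% of cells at 1.6 to 3%, 41.5% and 31.5% at 3 to 5%, and 71.6% and 73.7% at 5 to 10%. Malat1-poor cells made up 4.81% and 5.14%, 28.2% and 21.3%, and 16.4% and 17.5% of the same bands, with the largest share at 3 to 5%. A high mitochondrial share was not a constant feature of either kind. Of all ribosomal-poor cells, 145 of 450 (32.2%) and 192 of 416 (46.2%) lay at 3 to 10%, and of all Malat1-poor cells 77 of 184 (41.8%) and 93 of 297 (31.3%). Of the remaining kind, which is most of each library, 79 of 8435 (0.937%) and 172 of 9050 (1.90%) did.

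**Figure D3:**
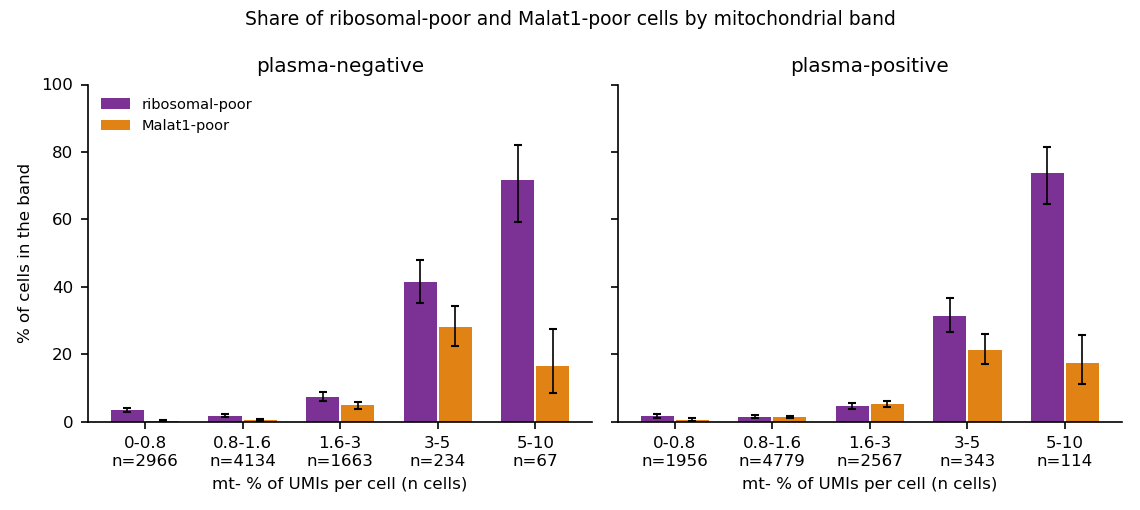
Percent of cells (y axis) that were ribosomal-poor (purple) or Malat1-poor (orange) in 5 bands of mitochondrial share (x axis, percent of UMIs, with the number of cells), with exact 95% binomial intervals. Ribosomal-poor cells are 3.47% and 1.74% of the band at 0 to 0.8%. They go from 1.81% and 1.46% of the band at 0.8 to 1.6% to 71.6% and 73.7% of the band at 5 to 10%.

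The 3 kinds differed in depth as well, and the part of depth in the gene differences below was not tested. Ribosomal-poor cells of high share had medians of 1201 and 1279.5 UMIs, Malat1-poor cells 1771 and 2072, and the remaining cells 3636 and 4161, close to the 3629 and 4006 of remaining reference cells. The remaining cells held 126 and 143 mitochondrial UMIs at the median against 42 and 47 in remaining reference cells, and 3513 and 4003 other UMIs against 3591 and 3957.5. With depth about equal, these values follow from the rule and are a description. Ribosomal-poor cells of high share held 55 and 63.5 mitochondrial UMIs, against 15 and 15 in ribosomal-poor reference cells. The share of mt-Co1 was lowest in the ribosomal-poor cells, at 10.1% and 10.8% of mitochondrial UMIs against 12.7% and 12.8% in remaining reference cells (ratios 0.795, interval 0.733 to 0.861, and 0.845, 0.792 to 0.902). In the remaining cells of high share it was 12.8% and 12.9% (ratio 1.01 in both libraries). mt-Nd6, the protein gene read from the other mitochondrial strand, was higher in the ribosomal-poor cells than in remaining reference cells in both libraries, on 31 and 42 UMIs (ratios 1.61, 1.05 to 2.39, and 1.54, 1.07 to 2.19). So was mt-Nd2, on 607 and 876 UMIs (1.11, 1.02 to 1.21, and 1.09, 1.02 to 1.18). The remaining reference cells were deeper, and the part of depth and of kind in these ratios was not tested. Reference cells under 2000 UMIs had mt-Co1 at 11.6% and 12.1%. Their mt-Nd6 was at 0.384% and 0.566%, on 8 and 10 UMIs, against 0.464% and 0.429% in ribosomal-poor cells of high share. Their mt-Nd2 was at 8.68% and 8.09%, against 9.1% and 8.95%.

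For the comparisons between kinds, levels are per 1000000 UMIs of genes that did not define the kinds, leaving out mitochondrial genes, ribosomal protein genes and Malat1. The comparisons of the ribosomal-poor and of the Malat1-poor cells below share the remaining cells of high mitochondrial share as their second side. Every gene list named here was drawn up with earlier results of these data known.

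Ribosomal-poor cells held more of long genes and nuclear RNAs and less of short, abundant mRNAs. Of 1870 genes at the level minimum, 478 (25.6%) were at least 1.5-fold higher and 275 (14.7%) lower than in the remaining cells of high share, in both libraries. The genes higher had a median exonic length of 9662 bases and a median span of 58157, those lower 2121 and 8784, and all genes at the minimum 5831 and 32400.5. Non-coding genes were 21 of the 478 (4.39%) against 1.6% of all at the minimum. Kcnq1ot1, the imprinted antisense RNA that silences its neighbours from within the nucleus (chromosome 7, 143203458 to 143296549), stood at 998 and 868 against 336 and 364 (log2 ratios 1.57, interval 0.89 to 2.32, and 1.25, 0.77 to 1.76). Gm43221 stood at 543 and 526 against 48.1 and 74.3 (3.50 and 2.82), the lower side resting on 3 and 10 UMIs. Luc7l2 and Pnisr, which code for splicing factors, stood at 1707 and 1525 against 785 and 736, and at 1322 and 1105 against 256 and 513. Madd, a protein of the Rab exchange machinery, stood at 306 and 302 against 64.1 and 74.3. Over the list of nuclear-retained and long non-coding RNAs 10 of 12 were higher and 0 lower, with medians of 1.37 and 0.79, against 0.24 and 0.27 over all genes. Of all genes with a mean of at least 20, 43.9% were higher and 25.3% lower in both libraries.

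Lower in the ribosomal-poor cells were most nuclear genes of the respiratory chain, of actin and thymosin, and of disease-associated microglia. Nuclear genes of the respiratory chain were higher for 2 and lower for 65 of 76 (medians -1.68 and -1.57), against 43.9% of all genes higher and 25.3% lower in both libraries. Atp5e, the epsilon subunit of ATP synthase, stood at 70.04 and 65.8 against 513 and 624 in the remaining cells. Uqcrh, the hinge protein of complex III, stood at 52.5 and 52.6 against 384 and 580. Of the actin and thymosin list 0 of 12 were higher and 11 lower (medians -0.97 and -1.52). Tmsb4x, thymosin beta 4, which binds actin monomers, stood at 1768 and 1867 against 13456 and 15009, log2 ratios of -2.93 and -3.01. Fth1, the ferritin heavy chain, stood at 779 and 815 against 3957 and 5528, Tyrobp, the adaptor of Trem2, at 630 and 828 against 4357 and 4042, and Cst3, cystatin C, at 19821 and 22368 against 70484 and 62375. All 10 genes of disease-associated microglia at the level minimum of lists, a mean of 20, were lower. Genes of homeostatic microglia were higher for 3 and lower for 10 of 18 (medians -0.38 and -0.08). Of the receptors of microglia, Csf1r, the receptor of their survival factor, was at 5025 and 4885 against 3813 and 3938, Cx3cr1 at 5962 and 6227 against 7080 and 6286, and P2ry12 at 1856 and 2032 against 2851 and 2378. Genes of the mitochondrial ribosome were higher for 2 and lower for 15 of 22, and genes of mitochondrial DNA maintenance and transcription were higher for 5 and lower for 0 of 8 (medians 0.48 and 1.01).

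In Malat1-poor cells 7 of 9 nuclear-retained or long non-coding RNAs were lower and 0 higher than in the remaining cells of high share. Of all genes with a mean of at least 20, 38.3% were lower and 24.9% higher in both libraries. A UMI of Neat1 or Kcnq1ot1, neither of which defined the kinds, was found in 0 of 77 thinned Malat1-poor cells of high share (exact upper limit 4.68%) and in 1 of 93 (1.08%). In ribosomal-poor cells the counts were 68 of 145 (46.9%) and 85 of 192 (44.3%), and in the remaining cells of high share 19 of 79 (24.1%) and 41 of 172 (23.8%). Without thinning, the Malat1-poor shares were 1.30% and 2.15% and those of the remaining cells 50.6% and 52.9%. Kcnq1ot1 was at 0 and 14.6 in the Malat1-poor cells (0 and 1 UMI), and Gm43221 at 0 in both libraries, where 3 UMIs would give 50.6 and 43.7. Luc7l2 was at 67.5 and 87.4 against 785 and 736 in the remaining cells (log2 ratios -3.54 and -3.07) and Pnisr at 16.9 and 43.7 against 256 and 513. Gm42418 was not near 0, at 3088 and 3775 against 3620 and 4116.

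Of 1507 genes at the level minimum, 178 (11.8%) were higher and 232 (15.4%) lower in the Malat1-poor than in the remaining cells of high share. Here the genes higher were the short ones, with a median exonic length of 2322 bases against 8382 for those lower and 4161 for all. Nuclear genes of the respiratory chain were higher for 56 and lower for 3 of 77 (medians 0.69 and 0.69), against all-gene medians of -0.25 and -0.22 and 24.9% of all genes higher and 38.3% lower in both libraries. Atp5e stood at 911 and 1224 against 513 and 624. Genes of actin and thymosin were higher for 12 of 14 and genes of disease-associated microglia for 10 of 12, with 0 lower in either list. Fth1 stood at 8791 and 12505 against 3957 and 5528, Tmsb4x at 24180 and 26860 against 13456 and 15009, Tpt1, the translationally controlled tumour protein, at 5906 and 6675 against 3092 and 3871, and Mif, a cytokine, at 422 and 379 against 48.1 and 111. Apoe stood at 1215 and 7345 against 993 and 3031. Cx3cr1, the fractalkine receptor, was low at 2194 and 2128 against 7080 and 6286 (log2 ratios -1.69, interval -1.98 to -1.41, and -1.56, -1.83 to -1.31). Genes of the immediate early response, which are transcribed within minutes of a stimulus, were higher for 0 and lower for 5 of 8.

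**Figure D4:**
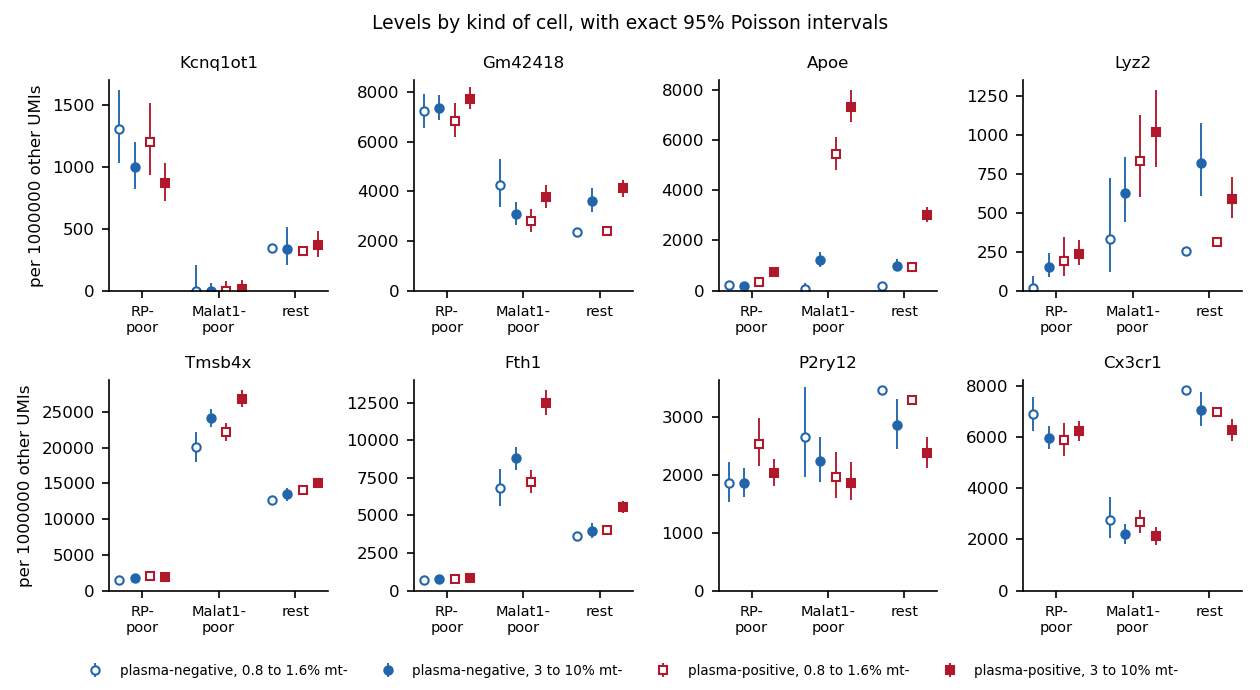
Levels of 8 genes (y axes, per 1000000 UMIs of genes that did not define the kinds, exact 95% Poisson intervals) in ribosomal-poor (RP-poor), Malat1-poor and remaining cells (rest). Filled symbols are cells at 3 to 10% and open symbols cells at 0.8 to 1.6% mitochondrial UMIs, circles plasma-negative and squares plasma-positive; Tmsb4x stood at 1415 to 2034 in the 4 groups of ribosomal-poor cells and at 12717 to 26860 in the 8 other groups.

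Reference cells of the same kinds are given for comparison, with no test of likeness. Ribosomal-poor reference cells had Tmsb4x at 1415 and 2034 and Kcnq1ot1 at 1301 and 1200, and Malat1-poor reference cells had Tmsb4x at 20064 and 22172 and Kcnq1ot1 at 0 in both libraries. At least 3 Apoe UMIs were found in 11.7% and 35.5% of Malat1-poor cells of high share. In Malat1-poor reference cells they were found in 0 of 22 and 9 of 61 (14.8%). The 95% intervals overlapped in each library: the lower limits at high share, 5.49% and 25.8%, lay below the upper reference limits, 15.4% and 26.2%. In ribosomal-poor cells the libraries went opposite ways, with 1.38% and 5.73% at high share against 4% and 1.43% in reference cells. Within the ribosomal-poor kind, 59 of 1920 genes (3.07%) were higher and 43 (2.24%) lower at the high share, with nuclear genes of the respiratory chain higher for 29 and lower for 8 of 66 (medians 0.28 and 0.21, against 0.01 and 0.00 over all genes, of which 25.9% were higher and 25.7% lower in both). Within the Malat1-poor kind, 46 of 1359 genes (3.38%) were higher and 77 (5.67%) lower, on only 22 and 61 reference cells. There, 9 of 13 genes of disease-associated microglia were higher and 0 lower, and 1 of 18 genes of homeostatic microglia was higher and 12 lower, against 22.7% and 28.7% of all genes.

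The remaining cells were closest to their reference cells in depth (median 3636 and 4161 UMIs against 3629 and 4006) and lay in the same range of Malat1 and ribosomal share. Within that range they were still not equal, with medians of 12.2% and 13.1% ribosomal protein UMIs against 9.68% and 10.2%, and 5.44% and 4.69% Malat1 against 6.28% and 5.34%. The part of this in the result was not tested. The highest Scrublet scores, a measure of likely doublets, were held by 0 of them and by 13.5% and 11.8% of their reference cells, and without those cells the counts below were 16 and 10. Of 1771 genes, 16 (0.903%) were at least 1.5-fold higher in both libraries and 9 (0.508%) lower. Without thinning the counts were 4 and 1.

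Apoe led the genes that were higher. It stood at 993 against 197 in the plasma-negative library (log2 ratio 2.33, interval 1.93 to 2.71) and at 3031 against 957 in the plasma-positive one (1.66, 1.51 to 1.81). After thinning, at least 3 Apoe UMIs were found in 7 of 79 (8.86%) and 36 of 172 (20.9%) of these cells, against 1.63% and 4.6% of the remaining reference cells; without thinning the shares were 20.3% and 36.0% against 5.57% and 11.3%. Lyz2, lysozyme (chromosome 10, 117277331 to 117282321), stood at 817 against 257 and 587 against 310 (1.67, 1.23 to 2.08, and 0.92, 0.57 to 1.25). Cd52, a small surface glycoprotein of leukocytes, stood at 865 against 512 and 936 against 589 (0.76 and 0.67). H2-K1, a classical MHC class I heavy chain, stood at 753 against 394 and 698 against 412 (0.94 and 0.76), and B2m, its light chain, at 2499 against 1741 and 2489 against 1856, under the 1.5-fold limit. Cd83, a surface protein of antigen-presenting cells, stood at 160 against 81.8 and 149 against 77.0, on 10 and 20 UMIs. With each gene the level in the cells of high share was above that in reference cells in both libraries, and for Cd83 the plasma-negative interval of the log2 ratio, -0.11 to 1.87, held 0.

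Gm42418 and AY036118, non-coding genes annotated on opposite strands of the same stretch of chromosome 17 (39846958 to 39848788 and 39847113 to 39848035), were also higher. Gm42418 stood at 3620 against 2366 and 4116 against 2383 (0.61 and 0.79), and AY036118 at 224 against 96.8 and 290 against 102 (1.21 and 1.51). The strand used in counting is not given in the sources used here, so reads of the pair cannot be told apart. Both were highest in the ribosomal-poor cells, Gm42418 at 7354 and 7739 and AY036118 at 911 and 953. The other 9 genes that were higher were Cspp1, Stard9, Fam193a, Rassf4, AU020206, Emsy, Mon2, Trappc2l and Ndufa6.

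Commd8, a subunit of the Commander complex of endosomal recycling, was among the 9 genes that were lower, at 192 against 407 and 253 against 416 (log2 ratios -1.08, -2.04 to -0.27, and -0.72, -1.25 to -0.23). The others were Ppig, Alg5, Syf2, Atp5k, Crybb1, Tpst2, Psmd7 and Hist1h1e. Of these 9 genes, 0 were called lower without thinning or at 2000 UMIs per cell. The genes called lower there, 1 and 3, were others. Of the genes called higher there, 4 of 4 and 5 of 8 were among those named above. P2ry12 was under the limit at 2851 against 3472 and 2378 against 3286 (-0.28, -0.51 to -0.07, and -0.47, -0.63 to -0.31), and Cx3cr1 at 7080 against 7835 and 6286 against 6994.

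**Figure D5:**
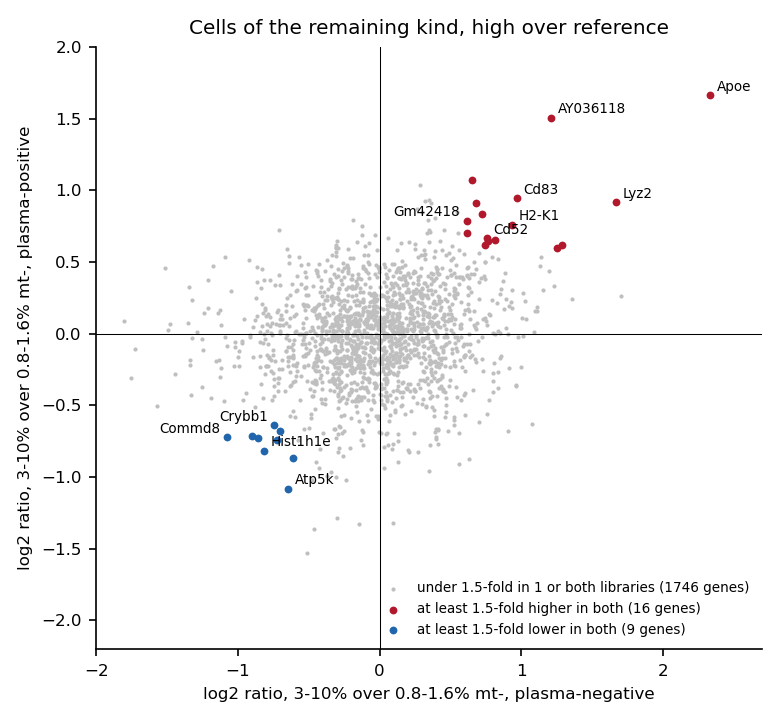
Log2 ratio of each gene, cells at 3 to 10% over cells at 0.8 to 1.6% mitochondrial UMIs within the remaining kind, in the plasma-negative (x axis) against the plasma-positive library (y axis). Red points are the 16 genes at least 1.5-fold higher in both libraries, with Apoe at 2.33 and 1.66, and blue points the 9 lower.

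By gene list, genes of disease-associated microglia were higher for 10 and lower for 0 of 11 (medians 0.52 and 0.46, against -0.03 and -0.02 over all genes, of which 25.2% were higher in both libraries), and MHC presentation genes were higher for 6 and lower for 1 of 10 (0.28 and 0.23). Genes of homeostatic microglia were higher for 3 and lower for 12 of 18 (-0.07 and -0.17), against 28.6% of all genes lower in both. Nuclear genes of the respiratory chain as a whole were split, with 24 higher and 17 lower of 77 (0.06 and 0.08). Of their 5 complexes, complex IV had 6 of 11 higher and 0 lower (0.22 and 0.19). Proteasome subunits were higher for 1 and lower for 10 of 19 (-0.17 and -0.28). Genes of apoptosis (3 higher, 4 lower of 15), of p53 (2 and 2 of 7) and of the integrated stress response (2 and 1 of 6) showed no common direction.

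The comparison the sort was made for, plasma-positive against plasma-negative, was then made within the cells of high mitochondrial share. Of 1749 genes with a mean of at least 100, 41 (2.34%) were at least 1.5-fold higher in the plasma-positive library and 59 (3.37%) lower, against 2 (0.117%) and 0 of 1711 genes in the reference cells, which number 8913 against 758 and so have smaller counting errors. Within cells of high share under 2000 UMIs the shares were 5.11% higher and 5.49% lower of 1877 genes, and with at least 2000 UMIs 7.49% and 10.0% of 1576. The make-up of the class differed between the libraries as well, with 37.6% remaining cells in the plasma-positive and 26.2% in the plasma-negative one. Values by kind are therefore given beside the pooled ones for Apoe and Ccl12, and the other values below are pooled over the kinds. The ratio of Apoe, plasma-positive over plasma-negative, was 4.39 (interval 3.71 to 5.24) in the cells of high share and 5.14 in the reference cells. By kind it was 4.24 (2.62 to 7.21) in ribosomal-poor, 6.05 (4.72 to 7.85) in Malat1-poor and 3.05 (2.33 to 4.05) in remaining cells of high share, against 4.86 (4.47 to 5.29) in remaining reference cells. Apoe was thus higher in the plasma-positive library in each kind of cells of high share. In ribosomal-poor reference cells the ratio was 1.64 (0.779 to 3.6), on 13 and 20 UMIs. Ccl12, a chemokine that attracts monocytes, had a ratio of 4.30 (2.76 to 7.0) in the cells of high share and 1.82 in the reference cells. By kind it was 5.76 (1.74 to 30.0) in ribosomal-poor and 3.42 (1.81 to 7.11) in remaining cells of high share, against 1.84 in remaining reference cells. In Malat1-poor cells it was 4.41 (2.13 to 10.3), on 9 and 46 UMIs. Ifitm3, an interferon-induced membrane protein, had a ratio of 7.43 (2.71 to 28.4) from 4 and 45 UMIs, against 3.31 in reference cells. Bst2, the interferon-induced tether of budding virus, stood at 104 in the plasma-negative and 213 in the plasma-positive cells of high share (2.05, 1.34 to 3.2), against 1.22 in reference cells. Of 10 genes of the type I interferon response, 10 were higher in the plasma-positive cells of high share (median log2 ratio 1.07), against 47% of all genes with a mean of at least 20. In the reference cells 9 of 9 were higher (1.02), against 47.7% of all. In shallow and deep cells of high share the counts were 10 of 10 and 8 of 11, against 50.3% and 47.4%. The lowest ratios belonged to Ppwd1 (0.446, 0.263 to 0.744) and Rab24 (0.471, 0.285 to 0.771), each on fewer than 50 UMIs per library.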

How the data were processed

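Droplet libraries (10x Genomics 3′ kit) of 2 sorts of microglia were analysed. The values are UMI counts per gene and cell, deposited by the authors as raw matrices. Per the file headers the matrices were written by cellranger 6.1.2, while the submitters' processing notes name Cell Ranger 3.0.1. The build, annotation and strand setting are not given in the sources used here. GENCODE M21 (GRCm38), in which 31011 of 31053 gene identifiers were found, served only for positions, lengths and sequences. Cell barcodes were not used here, so barcodes shared between the libraries could not be counted.

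Cells with at least 1000 UMIs and 300 genes were kept, and cells at 3 to 10% UMIs of the 13 mt- genes were compared with cells at 0.8 to 1.6%, each thinned to 1000 UMIs (seed 1). Levels are summed UMIs per 1000000 with exact Poisson intervals, ratios have exact conditional binomial intervals (95%, scipy 1.17.1, numpy 2.4.6), and shares Clopper-Pearson intervals. Log2 values have no pseudocount. No test was run, with 1 library per group. Genes were called at a mean level of at least 100 and a 1.5-fold ratio in both libraries, and lists used members with a mean of at least 20. The scripts were tested on simulated data.

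Genes were named by rule: the 12 highest and 12 lowest ratios, all mt- genes, the 3 most abundant and the extreme members of each of 31 lists, the 5 highest and 5 lowest plasma ratios, and Apoe, Malat1, Cst3, Tmsb4x, Cdkn1a, Top2a, Ccl12 and Ifitm3. The ends of each comparison between kinds were named likewise, and Tyrobp, Csf1r and Neat1 were picked after their values were seen. Members and lists were chosen with earlier results of these data known. The split at 2000 UMIs and the 3 kinds of cells, with their limits, were chosen after seeing the data. Doublets were kept. The automatic threshold of Scrublet (scanpy 1.11.5) called 8 and 1 cells and had not worked, so an alternative left out the 781 and 864 cells of highest score.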

Additional observations from a re-analysis of the deposited data

Results flagged for a closer look

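Gene lists whose ratio, high over reference, lay on opposite sides of 0 in cells under 2000 UMIs and in cells with at least 2000 UMIs, in both libraries, are given here as values. The difference between shallow and deep cells was not tested, and the split was chosen after seeing the data. Cytosolic ribosomal proteins had median log2 ratios of -0.37 (plasma-negative) and -0.73 (plasma-positive) in shallow cells, against 0.52 and 0.56 in deep cells. Genes of disease-associated microglia had -0.30 and -0.30 against 0.64 and 0.66. Nuclear genes of the respiratory chain had -0.27 and -0.58 against 0.14 and 0.20. Nuclear genes of complex IV alone had -0.37 and -0.45 against 0.37 and 0.36. Ribosomal-poor cells made up 48.2% and 42.0% of the cells of high mitochondrial share, and 93.8% and 90.6% of them lay under 2000 UMIs; the part of this in the opposite medians was not tested.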

How the results depend on the processing

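No paired analysis was possible because each sort has 1 library, which also leaves no library to leave out. Of 4369 alternative values, 3584 stayed within the spread set for them or within 1.5 times the count, 761 moved and 24 changed sign; where a value moved, the cause was not tested. The share of cells of high mitochondrial share, 3.32% and 4.68%, was 2.58% and 3.51% for the band of 3 to 5%, 0.739% and 1.17% for 5 to 10%, 1.32% and 2.55% with a cell minimum of 2000 UMIs, 6.46% and 6.92% with 500 UMIs, and 3.86% and 5.64% when taken after thinning. It was 5.14% in the plasma-positive library without the highest Scrublet scores. The counts of genes higher and lower, high over reference (36 and 19), were 17 and 12 at 3 to 5%, 231 and 203 at 5 to 10%, 7 and 6 without thinning, 18 and 11 at 2000 UMIs per cell, 8 and 8 with reference cells weighted by depth, 86 and 47 at a minimum level of 50, 11 and 11 at 200, and 5 and 0 at 2-fold. The count lower was 8 against cells at 1.6 to 3%. In alternatives chosen after seeing the data, cells under 2000 UMIs gave 57 and 65, and cells with at least 2000 UMIs 21 higher. The counts plasma-positive over plasma-negative (41 higher, 59 lower) were 241 and 327 at 5 to 10%, 20 and 11 without thinning, 96 and 103 under 2000 UMIs, 118 and 158 with at least 2000 UMIs, 190 and 268 at a minimum of 50, 10 and 5 at 200, and 4 and 3 at 2-fold; the count lower was 106 at 3 to 5%. Within the remaining kind (16 and 9) they were 4 and 1 without thinning, 8 and 3 at 2000 UMIs, 54 and 60 at 50, 6 and 3 at 200, and 2 and 0 at 2-fold; the count lower was 14 with a ribosomal limit of 6% and 15 without cells with 2 markers of another type. Median log2 ratios over both libraries that changed sign did so without thinning, at 2000 UMIs or with the reference weighted by depth. Nuclear respiratory chain genes were then at 0.038, 0.15 and 0.0918, complex I at 0.0295, 0.0795 and 0.0457, complex V at 0.0319, 0.18 and 0.0344, and the actin list at 0.0136, 0.086 and 0.10. At 2000 UMIs the long non-coding list was at -0.14, complement at 0.0626, Mysm1 at -0.41, Gm26699 at -0.48, Kcnq1ot1 at -0.40, B430010I23Rik at -0.42 and Gfm2 at -0.26. With weighting by depth the long non-coding list was at -0.0207, Gm26699 at -0.47, Kcnq1ot1 at -0.10, B430010I23Rik at -0.45 and Gfm2 at -0.0767. At 1000 UMIs per cell, 1 UMI was worth 3.47 and 2.29 per 1000000 over all cells of high share, and 16.0 and 7.43 in the remaining kind, which sets the depth limit for single genes.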

Other observations

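Cells above 10% mitochondrial UMIs, outside every comparison, numbered 5 in the plasma-negative library, at 11.2 to 12.7%, and 4 in the plasma-positive library, at 10.2 to 13.2%. Their median depth was 1233 and 1081 UMIs per cell.

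Ribosomal-poor cells were also found at the bottom of the mitochondrial range. At 0 to 0.8% they were 103 of 2966 plasma-negative cells (3.47%) and 34 of 1956 plasma-positive cells (1.74%), with a median of 3 and 8 mitochondrial UMIs per cell. Among all cells kept they were 4.96% and 4.26%, and Malat1-poor cells 2.03% and 3.04%. No Malat1 UMI at all was counted in 17 and 17 cells of high mitochondrial share, of 301 and 457, against 3 of 4134 and 11 of 4779 reference cells.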
